A study of Homo sapiens with 3 samples.

Results

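Mitosis and the G2/M transition were followed here through 48 genes of cell division in KYSE150 cells that overexpressed lysyl oxidase like 2 (LOXL2). These genes, like the other cell division lists below, were chosen by function with earlier results of these data known. The 48 genes cover mitotic cyclins and kinases, the spindle checkpoint, mitotic kinesins, the kinetochore, the spindle and cytokinesis. They make up a small part of the 18132 genes that the arrays could name from a probe set of 1 gene. Of the 48 genes, 47 had such a probe set, 126 probe sets in all of the 49395 on the array. PTTG1, which encodes securin, had none and has no value here. All 47 measured genes lay above the expression floor in every comparison.

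In dividing cells, CDK1 bound to cyclin A or cyclin B drives entry into mitosis, and CDC25 phosphatases switch it on by removing inhibitory phosphates. Polo and Aurora kinases build the spindle, kinetochores attach chromosomes to it, and the checkpoint holds back the anaphase-promoting complex until every chromosome is attached. Transcripts of these genes accumulate in G2 and mitosis under MuvB complexes with B-MYB and FOXM1, and are repressed by the DREAM complex in resting cells, so their summed level in a culture is widely read as a mark of proliferation.

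KYSE150 is an established human line of esophageal squamous cell carcinoma. The 3 groups were KYSE150 cells overexpressing the splice form LOXL2 △e13, KYSE150 cells overexpressing wild-type LOXL2, and KYSE150 cells given the empty vector, which was the control of both. The cells were transfected, per the labels. Each group was 1 PrimeView array of total RNA. The labels do not give the vector's promoter, whether lines were pools or clones, the culture density or the time of harvest. Values are log2 signals, and a difference is a subtraction of log2 signals.

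With 1 array per group there is no replicate check, so no test, standard error or p-value is given. The words higher and lower compare single arrays. The repeat measurement at hand was how far the probe sets of 1 gene disagreed on a difference. The standard deviation of that disagreement, called the probe set spread, was 0.13 for △e13 minus the vector, 0.16 for wild type minus the vector and 0.13 for △e13 minus wild type, which covers probe set error and not the variation between cultures. LOXL2 probe set 11718833_a_at gave a signal of 5.06 in the vector array, 10.77 in the △e13 array and 10.22 in the wild-type array, and 11718834_at gave 5.38, 7.94 and 8.07, both in the direction of the labels. Probe set 11751288_a_at gave 7.46, 7.41 and 14.05, in the direction of the wild-type label but at the vector level in the △e13 array. Only 11718832_a_at went against both labels, with 8.81, 8.73 and 8.32, highest in the vector array. All 7 measured squamous epithelial markers lay above the floor of 5.94 in at least 1 array, against 1 of 7 fibroblast markers (PDGFRB), 1 of 5 leukocyte markers (CD68) and 1 of 4 endothelial markers (PECAM1). Of the squamous markers SOX2 passed it in the vector array only, at 6.06, with 5.88 in the △e13 array and 5.63 in the wild-type array. The log2 of the summed signals ranged from 13.74 to 13.81 over the arrays for the squamous list, from 7.49 to 7.50 for the fibroblast list, from 8.70 to 9.17 for the leukocyte list and from 7.63 to 7.70 for the endothelial list. Collagen genes, PTPRC and CD3E were below the floor.

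Most mitosis genes gave a lower signal in each LOXL2 array than in the vector array, by small amounts. In the △e13 array 40 of 47 members were lower, where 51.5% of the 10878 genes tested were lower and 48.2% higher. Their median difference was -0.098 against -0.0061 for all genes tested. In the wild-type array 40 of 47 were lower, where 49.9% of 10881 genes were lower and 49.9% higher, and the median was -0.19 against 0.00. Both comparisons share the empty vector array, so they are not independent of each other. In a culture, fewer cells in mitosis and less RNA per mitotic cell cannot be told apart by these values.

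By the brightest probe set of each gene, members lower by at least 0.32 on the log2 scale numbered 3 for △e13 and 10 for the wild type. In either array 0 were that much higher. Over all genes tested, 2.97% were that much lower for △e13 and 7.13% for the wild type, while 3.39% and 10.7% were that much higher. A difference beyond the probe set spread, downward, was found in 19 of 47 members for △e13 and in 25 of 47 for the wild type, and upward in 0 of 47 for each. Over all genes tested the quartiles were -0.10 and 0.097 for △e13, inside the spread of 0.13. For the wild type they were -0.143 and 0.160, inside the spread of 0.164. No share of all genes beyond the spread was counted. The 3 for △e13 were CDC25B, GTSE1 and CCNA2, and the 10 for the wild type were CDC25B, CCNB2, AURKB, KIF20A, CDC25C, CCNA2, CDCA3, NEK2, NUF2 and GTSE1. These names depend on the probe set. With the median over probe sets all 3 calls for △e13 were lost (CDC25B at -0.22, GTSE1 at -0.19, CCNA2 at -0.29) and CDC25C alone was called, at -0.35. For the wild type CDC25B (-0.23) and GTSE1 (-0.32, just short of the limit) were lost with that setting, and CDK1 (-0.42), KIF2C (-0.34) and UBE2C (-0.34) were gained. On the brightest probe sets no member reached 1.5-fold in any comparison. Dimmer probe sets above the floor did for CENPF and NEK2. That of CENPF, 11743295_a_at, was 0.64 higher for △e13 and 0.51 higher for the wild type. NEK2 11753780_x_at was at -0.64 for the wild type. Over all genes tested, 0.303% were at least 1.5-fold lower and 0.359% higher for △e13, 0.919% lower and 2.02% higher for the wild type, and 0.12% lower and 0.184% higher for △e13 against the wild type.

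Array measures moved alongside. Background probe sets rich in G and C, at least 15 of their 25 bases, had a median difference from the vector of -0.21 in the wild-type array and -0.061 in the △e13 array. The other background probe sets differed by 0.0087 and 0.0016. The 5′ minus 3′ signal of the actin control was -1.26 in the vector array, -1.38 in the △e13 array and -1.46 in the wild-type array, while that of the GAPDH control was 0.0058, 0.033 and -0.0029. The part of these shifts in the mitosis values was not tested.

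**Figure D1:**
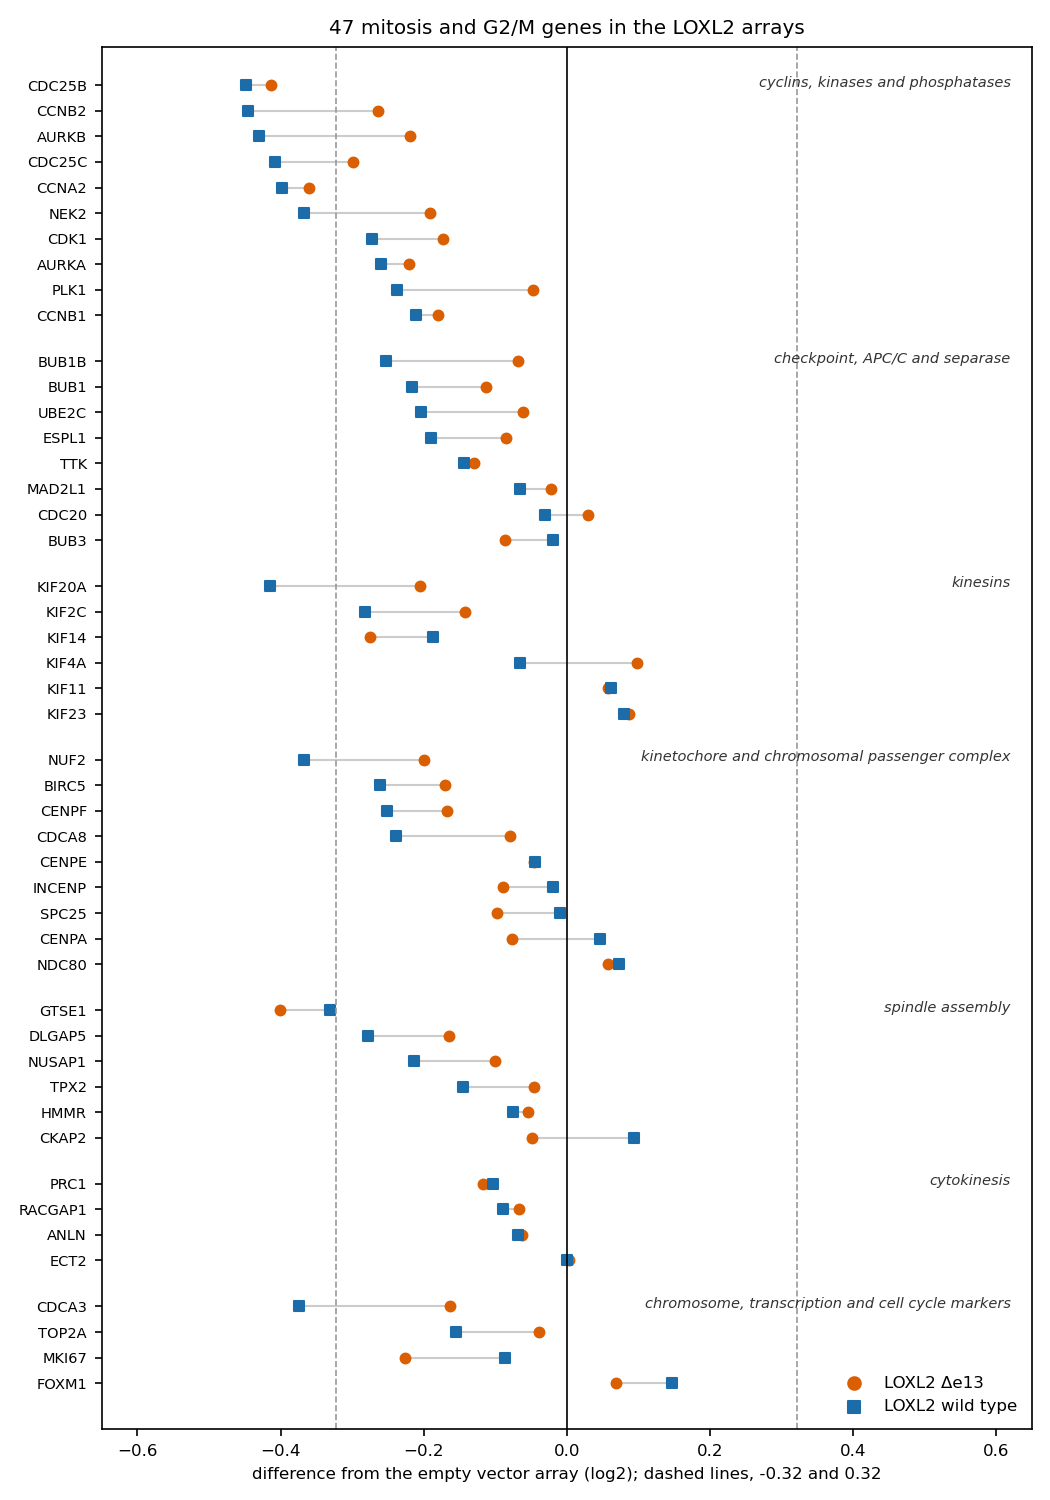
Log2 difference of each of the 47 measured members from the empty vector array, △e13 as circles and wild type as squares, grouped by role with dashed lines at -0.32 and 0.32. The cyclin, kinase and phosphatase group lies wholly left of 0, whereas FOXM1, KIF11, KIF23 and NDC80 lie right of it in each array.

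Promoters of these genes are known for a short element, the cell cycle genes homology region (CHR), read by MuvB complexes, with CCAAT boxes for NF-Y upstream of it. RefSeq promoter windows of build GRCh38.p14, from 250 bases before to 50 bases after an annotated start, were held for 40 of the 48 members, in 50 windows, since 6 members had several starts. The windows were searched on both strands for TTTGAA, for its variant TTTAAA, which reads the same on both strands, and for CCAAT. AURKA, BUB3, TTK, UBE2C, BIRC5, TPX2, RACGAP1 and FOXM1 were not in the table.

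TTTGAA was found for 29 of 40 members, 72.5% with an exact 95% interval of 56.1 to 85.4, against 18.2% of the 27305 genes in the table and 13.2% of the 8938 array genes above the floor outside the members. CCAAT was found for 33 of 40 members (82.5%), against 39.7% of all genes. Both motifs stood in 1 window for 25 of 40 members, against 7.26% of all genes. Of 35 DNA replication and S phase genes in the table, 1 held TTTGAA and 22 held CCAAT. Other cell division lists shared TTTGAA to varying degrees. It was found for 13 of 20 other mitotic kinesins and spindle proteins and 8 of 15 other mitotic kinases, cyclins and inhibitors. For condensin and cohesin genes it was 8 of 17, for other kinetochore and centromere proteins 7 of 19, and for APC/C subunits and regulators 5 of 18. The intervals cover counting error only, and a match is a description of letters, not of binding. In member windows TTTGAA was concentrated near the start. It began 26 to 50 bases before the start in 20% of windows and in the last 25 bases in 22%, against 1.43% and 1.17% of all 35116 windows.

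**Figure D2:**
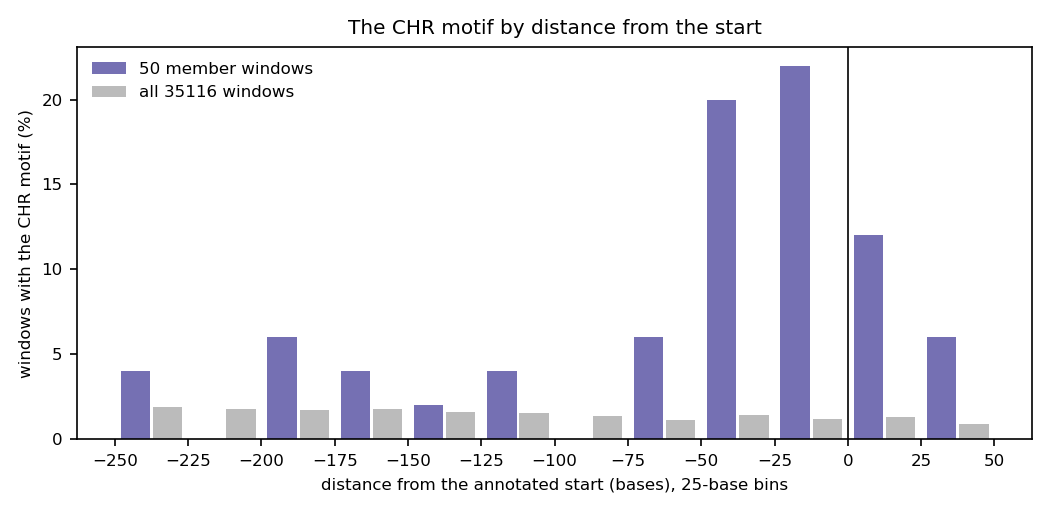
Percent of promoter windows in which the CHR motif TTTGAA begins in each 25-base bin, by distance from the annotated start. The 50 member windows are purple and all 35116 windows grey, and the variant TTTAAA is not counted. Member windows peak at 22% just before the start, where all windows stand at 1.17%.

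The 120 bases before the start are shown for 9 members that span the range of differences described next. Capitals mark the 3 motifs, read on either strand, so that ATTGG is a reversed CCAAT, and each line runs 5′ to 3′ on the gene's strand. CCNB2 (chr15:59105026-59105145, plus strand), PLK1 (chr16:23678769-23678888, plus), CCNB1 (chr5:69167030-69167149, plus), KIF20A (chr5:138178992-138179111, plus) and AURKB (chr17:8210226-8210345, minus) were lower in each LOXL2 array. CDC20 (chr1:43358861-43358980, plus), KIF23 (chr15:69414229-69414348, plus), KIF4A (chrX:70289984-70290103, plus) and CKAP2 (chr13:52455868-52455987, plus) were higher than the vector array in at least 1 of them. This split is by sign alone, on the brightest probe set of each gene. For △e13, PLK1 at -0.047 was as near 0 as CKAP2 at -0.048, both within the probe set spread. By their other probe sets above the floor, PLK1, KIF23 and CKAP2 would change sides.
CCNB2: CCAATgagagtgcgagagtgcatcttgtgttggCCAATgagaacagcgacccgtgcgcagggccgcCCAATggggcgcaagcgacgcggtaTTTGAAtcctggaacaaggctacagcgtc
PLK1: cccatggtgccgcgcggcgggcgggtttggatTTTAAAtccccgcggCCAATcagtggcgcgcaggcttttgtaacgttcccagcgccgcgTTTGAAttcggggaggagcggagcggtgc
CCNB1: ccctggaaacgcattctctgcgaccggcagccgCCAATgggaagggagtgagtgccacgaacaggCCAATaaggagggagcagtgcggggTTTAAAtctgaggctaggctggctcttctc
KIF20A: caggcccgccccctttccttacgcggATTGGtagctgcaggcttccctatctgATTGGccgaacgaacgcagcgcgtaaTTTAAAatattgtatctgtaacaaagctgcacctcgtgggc
AURKB: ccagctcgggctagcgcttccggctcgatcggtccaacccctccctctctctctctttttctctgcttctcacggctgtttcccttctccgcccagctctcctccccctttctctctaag
CDC20: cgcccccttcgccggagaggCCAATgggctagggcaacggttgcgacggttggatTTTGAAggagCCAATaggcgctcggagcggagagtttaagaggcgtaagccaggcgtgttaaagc
KIF23: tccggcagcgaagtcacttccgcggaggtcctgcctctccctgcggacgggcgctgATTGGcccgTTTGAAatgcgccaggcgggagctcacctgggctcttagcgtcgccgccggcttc
KIF4A: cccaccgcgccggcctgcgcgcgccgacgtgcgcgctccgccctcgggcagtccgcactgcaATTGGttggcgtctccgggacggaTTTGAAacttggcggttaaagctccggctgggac
CKAP2: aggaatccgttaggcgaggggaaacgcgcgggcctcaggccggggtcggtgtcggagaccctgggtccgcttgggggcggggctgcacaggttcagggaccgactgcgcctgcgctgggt

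In CCNB2 the 3 CCAAT boxes begin 120, 87 and 54 bases before the start and TTTGAA begins at 29. CCNB1 has boxes at 87 and 55 and TTTAAA at 30, and PLK1 has TTTGAA at 29. KIF4A, which was not lower in the △e13 array, carries the same TTTGAA at 34 and a reversed box at 58. Which members had the lower median depended on the motif. In the wild-type array the 29 members with TTTGAA had a median difference of -0.15 and the 10 measured members without it -0.32. In the △e13 array these medians were -0.084 and -0.19. Group make-up differed too, and its part was not tested. CCNA2, CCNB1, CDC25B, AURKB and NEK2, of the cyclin, kinase and phosphatase group with the lowest medians, lack TTTGAA. CCNB2, CDK1, CDC25C and PLK1 of that group have it. With TTTGAA or TTTAAA within 60 bases of the start, the medians for the wild type were -0.21 in the 31 members with a match and -0.19 in the 8 without, and for △e13 -0.10 and -0.081. With CCAAT they were -0.21 in 32 members and -0.069 in 7 for the wild type, and -0.12 and -0.063 for △e13. Outside the members, genes with TTTGAA had a wild-type median of -0.0015 and genes without it 0.0058.

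Cyclins, CDK1 and the kinases and phosphatases around it had the lowest medians of the 7 groups of members. For △e13 10 of 10 were lower, with a median of -0.22, and for the wild type 10 of 10, with a median of -0.38. CDC25B, a phosphatase that activates CDK1 at the centrosome, gave a signal of 9.54 in the vector array, 9.13 in the △e13 array and 9.10 in the wild-type array. Its differences of -0.41 and -0.45 correspond to signals 1.33-fold and 1.36-fold lower, and both LOXL2 arrays lay close together. All 5 of its probe sets were lower in the △e13 array and 4 of 5 in the wild-type array.

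CCNA2, cyclin A2, which pairs with CDK2 in S phase and CDK1 in G2, had signals of 10.06, 9.70 and 9.66 in the vector, △e13 and wild-type arrays. It was 1.28-fold lower for △e13 and 1.32-fold lower for the wild type, and its 2 probe sets ran the same way. CDC25C, the phosphatase that triggers mitotic entry, had signals of 8.63, 8.34 and 8.23 in the same order of arrays. Again the vector array was highest, and its probe sets gave -0.40 and -0.30 for △e13 and -0.41 and -0.38 for the wild type.

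Both B-type cyclins, the partners of CDK1, were lower, by unequal amounts. CCNB2 had signals of 10.74 in the vector array, 10.47 in the △e13 array and 10.29 in the wild-type array, and CCNB1 of 11.45, 11.27 and 11.24. The △e13 array stood between the others for CCNB2 and beside the wild type for CCNB1. CDK1 itself had signals of 10.87, 10.69 and 10.59.

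AURKB, the kinase of the chromosomal passenger complex that corrects faulty attachments, had signals of 9.62, 9.40 and 9.19 in the vector, △e13 and wild-type arrays. Its difference for the wild type, -0.43, was larger than that for △e13, -0.22. AURKA, which matures centrosomes and spindle poles, had signals of 11.41, 11.19 and 11.15, with both LOXL2 arrays close. NEK2, a kinase of centrosome separation, had signals of 9.56, 9.37 and 9.19, and its 6 probe sets above the floor were all lower, from -0.30 to -0.12 for △e13 and from -0.64 to -0.13 for the wild type.

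PLK1, the polo kinase needed from mitotic entry to cytokinesis, differed by -0.047 in the △e13 array and -0.24 in the wild-type array. Its second probe set above the floor did not repeat this, with values of 0.073 and 0.00.

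**Figure D3:**
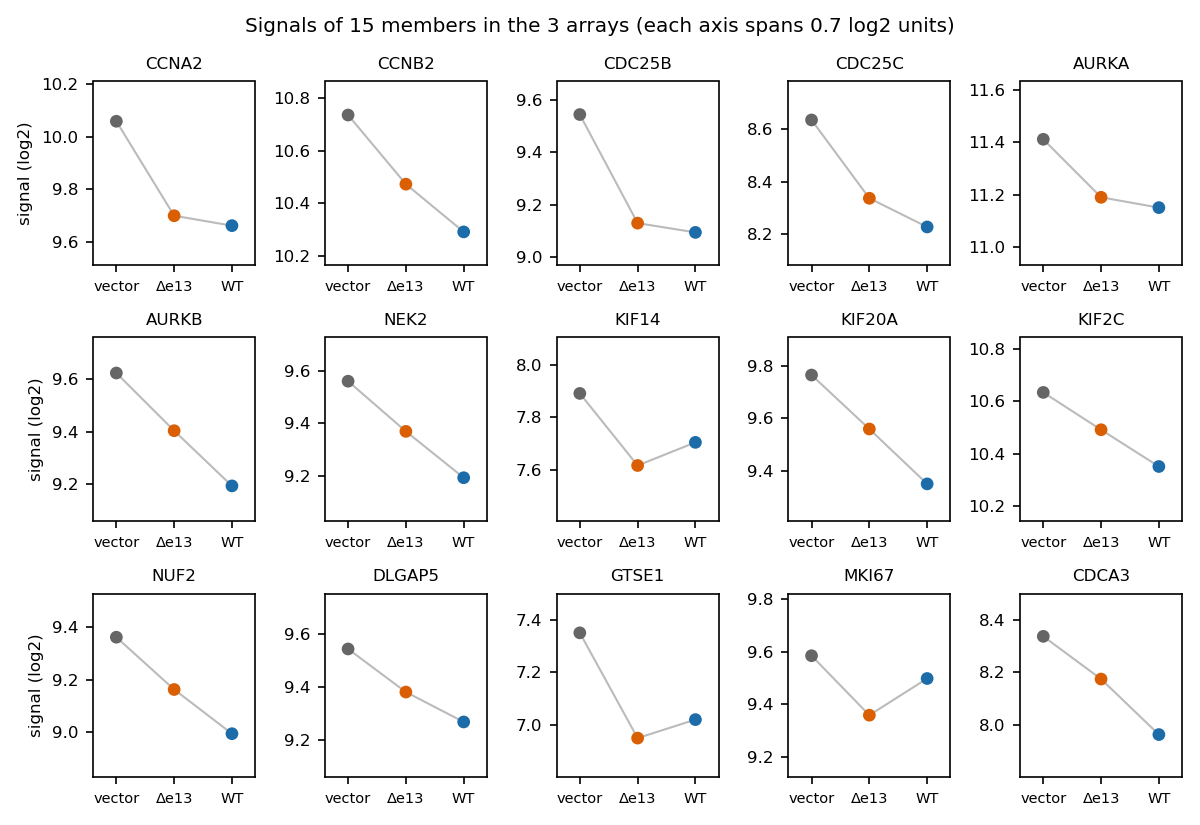
Log2 signals of the 15 members among the 12 largest differences from the vector in the △e13 or the wild-type array, 1 point per array with grey lines joining the points of a gene, on axes that each span 0.7 log2 units. The vector array is highest in every panel, and the △e13 array is lowest for KIF14, GTSE1 and MKI67.

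Genes of the spindle checkpoint and of the anaphase-promoting complex (APC/C) pathway stood closer to 0. Of 8 measured, 7 were lower for △e13 with a median of -0.077, and 8 of 8 for the wild type with a median of -0.17. None differed by 0.32 or more. BUB1B (BubR1), a subunit of the mitotic checkpoint complex, had signals of 9.41, 9.34 and 9.15 in the vector, △e13 and wild-type arrays. BUB1, the kinase that recruits checkpoint proteins to kinetochores, had signals of 9.76, 9.65 and 9.54. For both genes the wild-type array was lowest and the △e13 array lay between.

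UBE2C, the ubiquitin-conjugating enzyme that works with the APC/C, was lower on 4 of 4 probe sets in each array, by -0.062 for △e13 and -0.20 for the wild type on its brightest one. ESPL1, the separase that cuts cohesin, differed by -0.084 and -0.19. TTK (MPS1), the kinase at the top of the checkpoint, differed by -0.13 and -0.14. For △e13 these 3 values lie within the probe set spread, and for the wild type only that of TTK does.

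MAD2L1, which inhibits CDC20 at unattached kinetochores, differed by -0.022 and -0.065, and BUB3, the scaffold of BUB1 and BubR1, by -0.086 and -0.019. CDC20, the activator of the APC/C that the checkpoint restrains, gave signals of 10.60, 10.63 and 10.57. Its arrays could not be separated at the precision of the probe sets. Its promoter window holds TTTGAA and CCAAT, with no TTTGAA or TTTAAA within 60 bases of the start.

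The 6 mitotic kinesins did not share a direction. For △e13, 3 of 6 were lower, and for the wild type 4 of 6. KIF20A, a kinesin of the central spindle, had signals of 9.76, 9.56 and 9.35 in the vector, △e13 and wild-type arrays, and the △e13 array lay midway. KIF2C, which depolymerises microtubules at kinetochores, had signals of 10.63, 10.49 and 10.35. KIF14, a kinesin of cytokinesis, had signals of 7.89, 7.62 and 7.70, with △e13 lowest.

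KIF11, the motor that separates spindle poles, differed by 0.058 and 0.061, and KIF23, the MKLP1 subunit of centralspindlin, by 0.087 and 0.080. Each of these has a second probe set with the opposite sign, at -0.097 and -0.15 for KIF11 and at -0.11 and -0.099 for KIF23. KIF4A, a chromosome-bound kinesin, had signals of 8.40, 8.50 and 8.34, so that △e13 was higher and the wild type lower than the vector. No kinesin was higher than the vector by more than the probe set spread.

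Kinetochore and chromosomal passenger genes split between those lower with the wild type and those near 0. NUF2, a subunit of the NDC80 complex that holds microtubules, had signals of 9.36, 9.16 and 9.00 in the vector, △e13 and wild-type arrays. Its partner NDC80 had signals of 9.25, 9.31 and 9.33, and SPC25, another subunit, of 8.82, 8.73 and 8.81. Subunits of the same complex thus gave wild-type differences from -0.37 to 0.072.

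BIRC5 (survivin), which places the passenger complex at centromeres, was measured by 12 probe sets, 9 above the floor. All 9 were lower in the wild-type array, from -0.49 to -0.11, and 8 of 9 in the △e13 array. CDCA8 (borealin) differed by -0.080 and -0.24, and the scaffold INCENP by -0.089 and -0.019. INCENP was within the probe set spread in each array, and AURKB, the kinase of that complex, beyond it in each.

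CENPF, a large kinetochore protein, was read in opposite ways by its 2 probe sets. The brighter, 11743296_a_at, had signals of 11.29, 11.13 and 11.04, lower in each LOXL2 array. The dimmer, 11743295_a_at, had signals of 8.15, 8.79 and 8.67, higher by 0.64 for △e13 and 0.51 for the wild type. Which transcripts each of them reads was not looked up here. CENPE, the kinetochore kinesin, differed by -0.047 and -0.045, and CENPA, the histone variant that marks centromeres, by -0.076 and 0.047.

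Among spindle assembly genes, GTSE1 had the largest difference for △e13. GTSE1, a microtubule-binding protein of G2 and mitosis, had signals of 7.35, 6.95 and 7.02 in the vector, △e13 and wild-type arrays, and was 1.32-fold lower for △e13. DLGAP5 (HURP), which stabilises kinetochore fibres, had signals of 9.54, 9.38 and 9.27. NUSAP1, a spindle bundling protein, differed by -0.10 and -0.21, TPX2, the activator of AURKA, by -0.046 and -0.15, and HMMR, a spindle pole protein, by -0.054 and -0.075. For these 4 the wild-type array was lowest on the brightest probe set, but for HMMR △e13 minus wild type turned from 0.021 to -0.039 with the median over its probe sets. For GTSE1 the △e13 array was lowest, although △e13 minus wild type turned from -0.070 to 0.12 with the median over its probe sets.

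CKAP2, a microtubule-associated protein, shows how far the choice of probe set matters. Its brightest probe set, 11723678_at, differed by -0.048 for △e13 and 0.094 for the wild type. The other 4 were lower in each array, from -0.26 to -0.21 for △e13 and from -0.43 to -0.30 for the wild type. The direction for the wild type thus flips with the probe set.

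Cytokinesis genes stood near 0, with medians of -0.065 for △e13 and -0.079 for the wild type. PRC1, which bundles the central spindle, differed by -0.12 for △e13 and -0.10 for the wild type, ANLN (anillin), of the contractile ring, by -0.063 and -0.069, and RACGAP1, the partner of KIF23, by -0.066 and -0.089. ECT2, the exchange factor that activates RhoA at the midzone, had signals of 10.16, 10.17 and 10.16. All 4 lay within the probe set spread in both comparisons.

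The remaining members are general marks of cycling cells. CDCA3, a trigger of mitotic entry, had signals of 8.34, 8.17 and 7.96 in the vector, △e13 and wild-type arrays. TOP2A, the topoisomerase that untangles sister chromatids, differed by -0.039 and -0.15 and was lower on 3 of 3 probe sets in each array. MKI67, the Ki-67 antigen, had signals of 9.58, 9.36 and 9.50, with all 5 probe sets above the floor lower for △e13 and 3 of 5 for the wild type. FOXM1, the forkhead factor that drives G2/M transcription, had signals of 8.42, 8.49 and 8.57 on its brightest probe set. Its other 2 probe sets were lower, at -0.079 and -0.22 for △e13 and at -0.23 and -0.25 for the wild type, so its direction depended on the probe set.

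**Figure D4:**
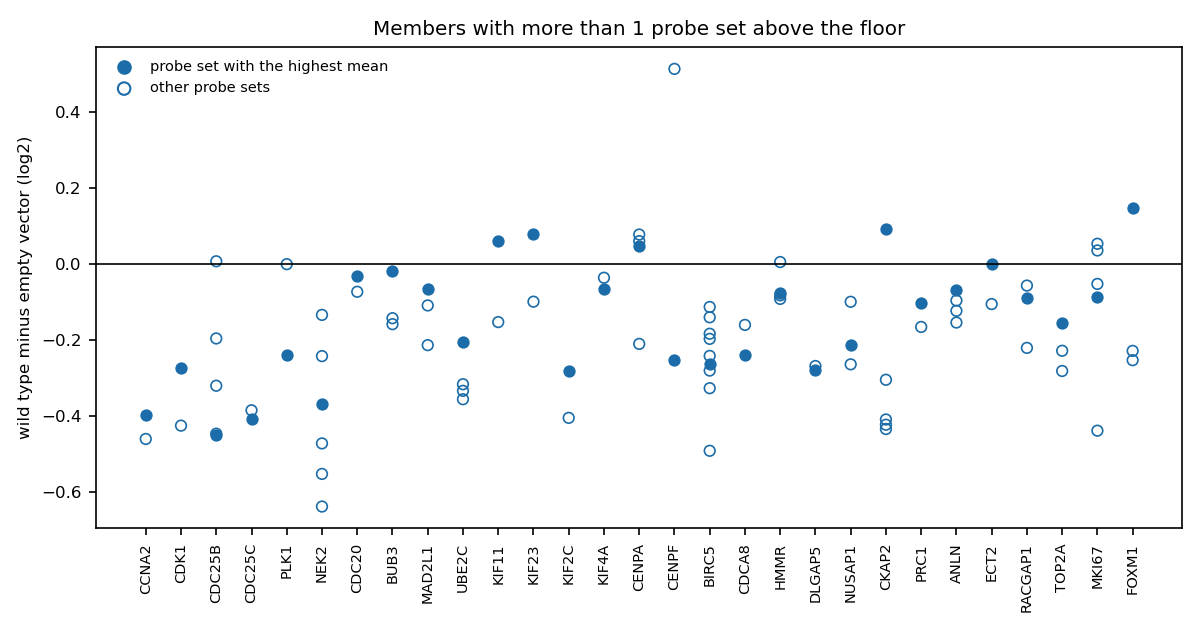
Log2 difference of wild type minus empty vector for every probe set above the floor of the 29 members with more than 1, filled for the probe set with the highest mean and open for the others. All probe sets of a gene ran the same way in 18 of the 29. CENPF, CKAP2 and FOXM1 are among the members with probe sets on both sides of 0, as are KIF11, KIF23, CENPA and MKI67. The CENPF probe set at 0.51 stands apart.

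Over probe sets rather than genes, 97 of the 110 above the floor were lower for △e13 and 13 higher, and 95 were lower for the wild type and 14 higher. Of 29 members with more than 1 probe set above the floor, all ran the same way in 21 for △e13 and in 18 for the wild type. Probe sets of a gene share its RNA and are not replicates. No share over all probe sets or all genes of the array stands beside these counts.

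Set directly against each other, the LOXL2 arrays differed by less. In the △e13 array 34 of 47 members were higher than in the wild-type array and 13 lower, where 45.2% of the 10847 genes tested were higher and 54.5% lower, with a median of 0.043 against -0.015 for all genes. None differed by 0.32 or more in either direction, against 2.06% of genes higher and 2.79% lower. Beyond the probe set spread, 12 members were higher and 2 lower in the △e13 array. Over all genes tested the quartiles were -0.11 and 0.076, inside that spread, and no share of genes beyond it was counted. Of the members, CDCA3, AURKB and KIF20A, each at 0.21, had the largest positive differences. PLK1 at 0.19 and BUB1B and CCNB2 at 0.18 followed. CKAP2 and MKI67, each at -0.14, were the 2 lower, but CKAP2 turned to 0.057 with the median over its probe sets and MKI67 to 0.24 without probe sets of suffix _s_at or _x_at. The cyclin, kinase and phosphatase group was higher in the △e13 array for 10 of 10 genes, with a median of 0.10. The median difference of the background probe sets rich in G and C was 0.16 in this comparison, and its part was not tested.

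Other genes of cell division were read from lists that hold no member. Condensin compacts and cohesin holds sister chromatids. The list of their subunits and regulators had medians of -0.030 for △e13 and 0.031 for the wild type, with 13 and 9 of 19 lower. The condensin subunits NCAPD2 (-0.40) and NCAPH (-0.27) were the lowest there for the wild type, and the cohesin subunit STAG1 (0.49) the highest. APC/C subunits and regulators had medians of -0.023 and 0.017, with 11 and 6 of 17 lower. Other kinetochore and centromere proteins had medians of -0.035 and -0.0067, with 16 and 12 of 24 lower. Their lowest value for the wild type was that of HJURP, the chaperone of CENPA, at -0.47, and their highest that of MIS12, an outer kinetochore scaffold subunit, at 0.58.

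The lists of other spindle and kinase genes had lower medians than these. Other mitotic kinesins and spindle proteins had medians of -0.13 for △e13 and -0.024 for the wild type, with 15 and 12 of 21 lower and 6 lower by at least 0.32 for the wild type. KIF22, a chromosome-arm kinesin, at -0.40 and TROAP at -0.39 were the lowest of them. Other mitotic kinases, cyclins and inhibitors had medians of -0.067 and -0.083, with 15 and 14 of 20 lower. WEE1, the kinase that inhibits CDK1, was lower by -0.19 for △e13 and -0.32 for the wild type, and CCNG2, cyclin G2, by -0.065 and -0.51. CDC25A, the CDC25 form that acts at G1/S as well, was higher, at 0.29 and 0.66.

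Regulators of the G2/M promoters, the DREAM, MuvB and B-MYB list, had medians of -0.051 and 0.040 with 6 and 5 of 11 lower. The MuvB subunit LIN37 was the highest, at 0.36 for △e13 and 0.42 for the wild type, and the pocket protein RBL2 (p130) was lower at -0.26 and -0.28. Inhibitors of cyclin-dependent kinases with the G1 cyclins had medians of 0.065 and 0.097, with 4 and 5 of 14 lower. CCNE2, cyclin E2, was 0.19 and 0.63 higher. The inhibitors did not share a direction: CDKN2B was 0.090 and 0.59 higher, and CDKN1B (p27) was lower at -0.20 and -0.38.

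DNA replication and S phase genes are the other proliferation list, and there the arrays parted. For △e13 their median was -0.082 with 31 of 39 lower, close to that of the mitosis members. For the wild type it was -0.0017 with 20 of 39 lower, while the mitosis members stood at -0.19. CDC6, which loads the replicative helicase, was 0.33 higher for △e13 and 0.64 higher for the wild type. The difference between the lists was not tested, and neither was the part of the GC-rich background shift in it.

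**Figure D5:**
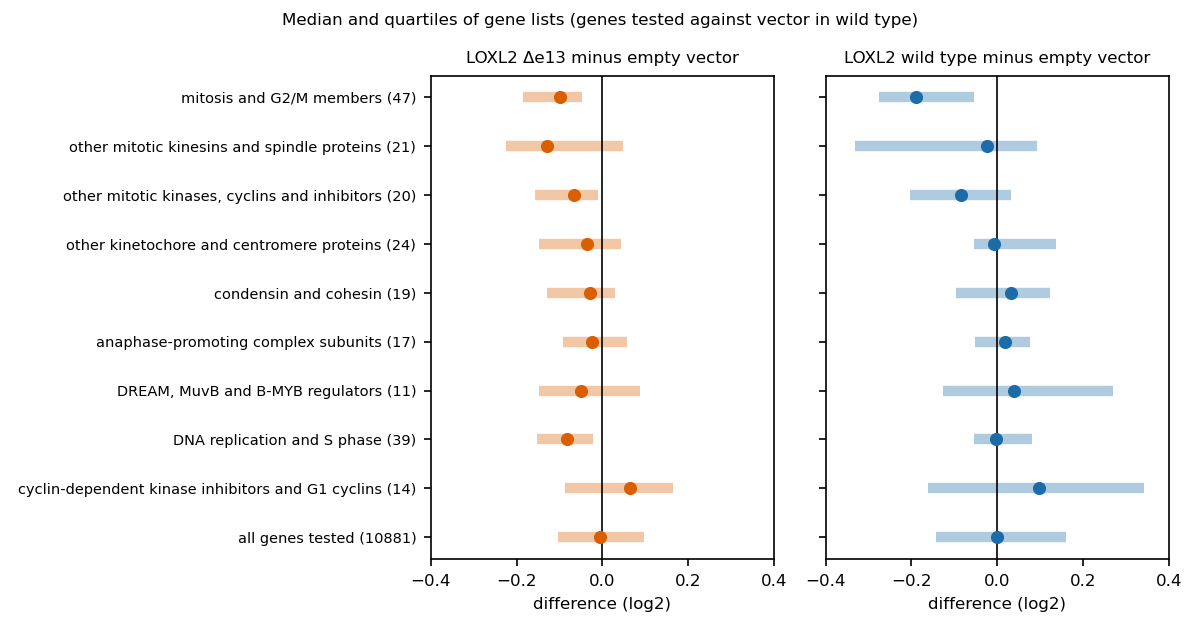
Median (point) and quartiles (bar) of the log2 difference from the empty vector for the members, 8 other cell division lists and all genes tested, △e13 on the left and wild type on the right, with the number of genes tested for the wild type in parentheses. The mitosis members have the lowest wild-type median of the lists shown, -0.19, and the S phase list lies at -0.0017.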

How the data were processed

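Total RNA of 3 groups, 1 array each, was hybridised to PrimeView arrays, per the labels. Per the submitters' processing notes, the authors used RMA (no version named), and the log2 scale of the deposited probe set signals was read from their range. RMA equalises the distribution of the arrays and would hide a shift shared by most genes, and signals near the floor hold background that compresses differences. The number of arrays limits the precision.

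Probe sets were named from GEO's platform annotation, with symbols checked in RefSeq (GRCh38.p14). Of 49395 probe sets, 102 were controls, 44994 had 1 symbol, 1832 several and 2467 were unlisted. Of several probe sets per gene the one brightest on average was used, and the gene was tested if the higher of its 2 signals reached the median of all non-control values, 5.94. Of 247 listed genes, 1 was updated by synonym (CENPJ to CPAP) and 9 had no probe set of 1 gene, KRT17, KRT6A and TP63 among them.

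No test was possible. Differences of at least 0.32 (log2) were counted. Every member could be named, those with all signals being the 12 largest differences per LOXL2 array, and at most the 2 lowest and 2 highest genes of each other list. Signals of CCNB1, CDK1, BUB1, BUB1B, CDC20, KIF4A, NDC80, SPC25, CENPF, ECT2 and FOXM1 were added for their role, with values known. Members and lists were chosen with earlier results of these data known. Alternatives were the median over probe sets, other floors, quantile normalization, centring, loess (fraction 0.3), a 1.5-fold threshold and, chosen after seeing the data, dropping probe sets of suffix _s_at and _x_at. The steps were tested on simulated data. Python 3.11.15, numpy 2.4.6, pandas 2.3.3, scipy 1.17.1, statsmodels 0.14.6 and matplotlib 3.10.9 were used.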

Additional observations from a re-analysis of the deposited data

Results flagged for a closer look

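For 4 members the LOXL2 arrays lay on opposite sides of the vector array, a difference that was not tested. KIF4A differed by 0.099 for △e13 and -0.066 for the wild type, CENPA by -0.076 and 0.047, CKAP2 by -0.048 and 0.094, and CDC20 by 0.029 and -0.030. Each value is smaller than the spread between probe sets of a gene.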

How the results depend on the processing

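Median differences of the members moved by less than the probe set spread under every alternative run, from -0.13 to -0.092 for △e13 minus the vector, from -0.21 to -0.19 for wild type minus the vector and from 0.043 to 0.076 for △e13 minus wild type. The number of members lower by at least 0.32 for △e13, 3, became 1 with the median over probe sets, which was CDC25C and none of the 3, and at a threshold of 1.5-fold it became 0, as did the 10 of the wild type. The median signal of the members became 9.14 in the △e13 array, 9.00 in the wild-type array and 9.25 in the vector array with the median over probe sets, which draws on dimmer probe sets. With the same setting CENPF became higher, at 0.23 for △e13 and 0.13 for the wild type, and FOXM1 lower, at -0.22 and -0.25. PLK1 became 0.073 and 0.00, CKAP2 became -0.30 for the wild type, and CENPA became 0.028 for △e13, on the side of its wild-type value. ECT2, KIF11, KIF23 and, for the wild type, MKI67 also turned with it. With loess INCENP turned for the wild type from -0.019 to 0.027 and ECT2 from 0.0001 to -0.022. Without probe sets of suffix _s_at or _x_at, NEK2 fell short of 0.32 for the wild type, at -0.13, and MKI67 passed it, at -0.44. Not every member had a value under every alternative. Of those that had, 35 of 41 kept their direction for △e13, 34 of 41 for the wild type and 28 of 40 for △e13 minus wild type. No paired analysis was possible because each group has 1 array.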
